A study of Mus musculus with 15 samples.

Results

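The Dlk1-Dio3 region of mouse chromosome 12 was described through the 9 array transcript clusters annotated to Dlk1, Meg3, Rian, Mirg, Rtl1, Mir300, Mir380 and Mir377, of 35556 clusters on the array. The 8 genes were chosen by their log2 signal across the 4 genotype groups and by its relation to the hepatocyte genes Alb, Afp and Apob on the same arrays, so both are given for them as a description, without a test. Rian had a cluster of its own and another shared with the small nucleolar RNA gene AF357355, and Mirg had only a cluster shared with Mir410. These are called Rian/AF357355 and Mirg/Mir410, and the part of either gene in a shared cluster cannot be told apart. The other 7 clusters had 1 gene each.

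The Dlk1-Dio3 region is an imprinted domain, in which the copy inherited from each parent is used differently. The protein-coding genes Dlk1, Rtl1 and Dio3 are expressed mainly from the paternal chromosome. The noncoding RNAs Meg3, Rian and Mirg are expressed from the maternal chromosome and lie in the same orientation, with small nucleolar RNAs within Rian and a large microRNA cluster next to and within Mirg. A differentially methylated region upstream of Meg3 controls this parental pattern. In the fetal liver DLK1, a transmembrane protein of the epidermal growth factor-like repeat family, is a well-known surface marker of hepatoblasts, the precursors of hepatocytes.

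The 3 microRNA genes among the members are shown by both of their mature arms, as RNA from 5′ to 3′ with the seed (bases 2 to 8) in capitals, since the seed sets which transcripts a microRNA can pair with. The array clusters are annotated to the genes, so the arms cannot be told apart in the values, and the abundance of the mature microRNA was not measured. Sequences are from RefSeq on build GRCm38.p6, all on the plus strand, and the 3′ arms lie at chr12:109711842-109711863 for Mir380, chr12:109724363-109724384 for Mir300 and chr12:109740553-109740574 for Mir377. Mir370 is added because it was the non-member of the locus whose signal passed the test below.
miR-380-5p: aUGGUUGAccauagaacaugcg
miR-380-3p: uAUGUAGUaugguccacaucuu
miR-300-5p: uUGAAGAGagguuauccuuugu
miR-300-3p: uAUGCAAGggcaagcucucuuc
miR-377-5p: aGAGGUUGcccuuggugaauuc
miR-377-3p: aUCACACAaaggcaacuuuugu
miR-370-3p: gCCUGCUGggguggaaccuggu
The table held 113 mature microRNAs from 61 hairpin genes of the locus, with 104 different seeds. Of these seeds 9 were shared by more than 1 mature microRNA, and 18 mature microRNAs had such a seed. The seeds of miR-300, miR-380 and miR-377 were each held by 1 mature microRNA of the locus, so the member microRNAs were not grouped by a common seed.

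Promoter stretches of Dlk1 and Meg3 are shown because the altered factors, KLF3 and KLF8, belong to a family that binds CACCC-type motifs. The letters searched were CACCC and its reverse complement GGGTG, which are in capitals. The 250 bases before the RefSeq start (GRCm38.p6, plus strand) are chr12:109452573-109452822 for Dlk1 and chr12:109540746-109540995 for the first of 2 starts of Meg3.
Dlk1: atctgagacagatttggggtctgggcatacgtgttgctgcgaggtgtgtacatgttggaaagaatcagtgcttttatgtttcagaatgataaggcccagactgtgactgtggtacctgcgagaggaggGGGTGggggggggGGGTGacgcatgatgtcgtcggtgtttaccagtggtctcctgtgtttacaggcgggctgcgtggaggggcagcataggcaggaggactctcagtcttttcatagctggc
Meg3: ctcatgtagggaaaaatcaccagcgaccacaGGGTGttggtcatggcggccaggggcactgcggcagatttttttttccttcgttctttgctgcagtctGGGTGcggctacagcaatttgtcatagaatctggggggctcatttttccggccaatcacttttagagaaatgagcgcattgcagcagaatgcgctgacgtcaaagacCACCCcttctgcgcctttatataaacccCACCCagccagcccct
The Dlk1 stretch held 2 matches and the Meg3 stretch 4, the second Meg3 start had 7, Mirg and Dio3 had 2 each and Rian had 0. Of 32851 windows of the same length in the table, 52.0% held at least 1 match, 21.1% at least 2 and 2.1% at least 4. A match of these letters is a description of the sequence and shows no binding.

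Expression was measured on 15 Affymetrix arrays of RNA from TER119+ cells, sorted with magnetic beads from E13.5 fetal livers of FVB/NJ mice. TER119 is a surface antigen of maturing red cell precursors. The groups were 4 arrays labelled Klf3-/- Klf8gt/gt (DKO), 3 labelled Klf3-/- (Klf3KO), 4 labelled Klf8gt/gt (Klf8gt) and 4 wild-type (WT), where gt is a gene trap. KLF3 and KLF8 are related zinc finger repressors of transcription, and the design asks what loss of each and of both changes. The labels do not say that each array is a separate embryo, or which arrays share a litter.

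The group names follow the labels. The Klf3 cluster was not lower in the arrays labelled Klf3-/-, at 11.37 ± 0.28 in DKO (SD, n = 4) and 11.32 ± 0.14 in Klf3KO (n = 3), against 10.27 ± 0.17 in WT (n = 4). Klf8 was at 7.29 ± 0.55 in DKO, 8.71 ± 0.26 in Klf3KO and 5.39 ± 0.09 in Klf8gt, against 5.36 ± 0.18 in WT, whose mean lay below the array medians. These signals do not check the genotype labels, because their probes may lie outside the deleted or trapped parts. By Xist and Y-linked genes the DKO and Klf8gt groups each held 2 female and 2 male arrays, Klf3KO held 2 female and 1 male, and all 4 WT arrays were male. All 10 erythroid markers measured had means above all array medians, and so did 18 of 18 hepatocyte, 13 of 14 macrophage, 10 of 11 stromal, 8 of 8 endothelial and 5 of 5 megakaryocyte markers, against 5 of 7 progenitor and 0 of 4 lymphoid and mast cell markers. The erythroid label thus had its markers, beside those of other liver cells. DKO replicate 1 and Klf8gt replicate 1 were the lowest of their groups for several members, and the members' differences are given below without each of them.

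Dlk1, the founding paternally expressed gene of the locus, had log2 signals of 11.86, 12.01, 12.71 and 12.50 in DKO arrays, 11.89, 11.85 and 12.14 in Klf3KO arrays, and 11.75, 12.29, 12.31 and 12.10 in Klf8gt arrays, against 11.74, 11.71, 11.71 and 12.13 in WT arrays. DKO replicates 3 and 4 were the highest of all arrays, and each group overlapped with every other. The mean order was DKO, Klf8gt, Klf3KO and WT, and no neighbours in that order were separated beyond their spread. The DKO mean lay 0.45 ± 0.18 above WT on the log2 scale (SE), a 1.36-fold difference. The differences from WT were 0.14 ± 0.19 in Klf3KO and 0.29 ± 0.18 in Klf8gt.

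Rtl1, a paternally expressed gene derived from a retrotransposon and needed in the placenta, had log2 signals of 7.29, 7.71, 8.34 and 7.76 in DKO arrays, 7.40, 7.18 and 7.40 in Klf3KO arrays, and 6.98, 7.89, 7.59 and 7.59 in Klf8gt arrays, against 6.75, 6.99, 6.99 and 7.43 in WT arrays. DKO replicate 3 was again the highest, and 3 of 4 DKO arrays exceeded every WT array. The group order was that of Dlk1, with all neighbours overlapping. The DKO mean was 0.73 ± 0.21 above WT (1.66-fold). The Klf8gt mean was 0.47 ± 0.21 and the Klf3KO mean 0.29 ± 0.23 above WT. Rtl1 is overlapped on the opposite strand by microRNA genes of the locus, and which strand its probes read was not stated.

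Meg3, a long noncoding RNA of the maternal chromosome, had log2 signals of 13.04, 12.93, 13.64 and 12.80 in DKO arrays, 12.29, 12.19 and 12.52 in Klf3KO arrays, and 11.88, 12.64, 12.79 and 12.78 in Klf8gt arrays, against 12.02, 12.36, 12.22 and 12.93 in WT arrays. Every DKO array was above every Klf3KO and every Klf8gt array, but WT replicate 4 lay within the DKO range. The margin over Klf8gt was narrow, with 12.80 for the lowest DKO array and 12.79 for the highest Klf8gt array. The DKO mean exceeded Klf3KO by 0.77 ± 0.25 (1.70-fold), Klf8gt by 0.58 ± 0.23 (1.49-fold) and WT by 0.72 ± 0.23 (1.65-fold). Neither single mutant group was separated from WT, with differences of -0.05 ± 0.25 in Klf3KO and 0.14 ± 0.23 in Klf8gt. Without Klf8gt replicate 1, the DKO excess over Klf8gt was 0.36 on the log2 scale.

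Rian, the host of tandem small nucleolar RNAs, had log2 signals of 7.33, 9.03, 10.69 and 9.72 in DKO arrays, 9.48, 9.27 and 10.14 in Klf3KO arrays, and 8.54, 10.30, 10.13 and 9.98 in Klf8gt arrays, against 8.45, 8.05, 8.38 and 8.73 in WT arrays. The DKO arrays spanned both the lowest and the highest value of the 15, and every Klf3KO array was above every WT array. The means lay above WT by 0.79 ± 0.53 in DKO (1.73-fold), 1.23 ± 0.58 in Klf3KO (2.34-fold) and 1.34 ± 0.53 in Klf8gt (2.53-fold). Without DKO replicate 1 the DKO difference was 1.41, and without DKO replicate 3 it was 0.29, so the DKO value rested on single arrays.

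The Rian/AF357355 cluster had log2 signals of 8.93, 9.75, 11.37 and 10.38 in DKO arrays, 10.03, 9.56 and 10.39 in Klf3KO arrays, and 9.11, 10.67, 10.55 and 10.46 in Klf8gt arrays, against 8.98, 8.78, 9.09 and 9.57 in WT arrays. The same DKO and Klf8gt arrays were low as in the Rian cluster, and all 3 mutant groups overlapped with WT. The differences from WT were 1.01 ± 0.43 in DKO (2.01-fold), 0.89 ± 0.46 in Klf3KO (1.85-fold) and 1.09 ± 0.43 in Klf8gt (2.14-fold). The DKO difference was 1.40 without DKO replicate 1 and 0.59 without DKO replicate 3.

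Mirg/Mir410, at the far end of the microRNA cluster, had log2 signals of 5.51, 6.69, 8.05 and 7.49 in DKO arrays, 6.39, 6.22 and 6.75 in Klf3KO arrays, and 6.07, 7.48, 7.22 and 7.38 in Klf8gt arrays, against 5.91, 5.53, 5.91 and 6.11 in WT arrays. DKO replicate 1 was the lowest of all 15 arrays and DKO replicate 3 the highest. The array medians lay between 6.28 and 6.41, and the WT mean was below them, so the differences of 1.07 ± 0.42 in DKO, 0.59 ± 0.45 in Klf3KO and 1.17 ± 0.42 in Klf8gt are given on the log2 scale without a fold. Without DKO replicate 1 the DKO difference was 1.55, and without DKO replicate 3 it was 0.70.

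Mir380 had log2 signals of 5.79, 6.74, 7.95 and 7.76 in DKO arrays, 6.92, 6.91 and 7.13 in Klf3KO arrays, and 6.29, 8.04, 7.70 and 8.03 in Klf8gt arrays, against 6.16, 6.09, 6.26 and 6.30 in WT arrays. The WT arrays lay close together, the Klf3KO arrays were all above them, and DKO replicate 1 was below them. The differences from WT were 0.86 ± 0.41 in DKO, 0.78 ± 0.45 in Klf3KO and 1.31 ± 0.41 in Klf8gt. Leaving out DKO replicate 1 gave 1.28 for DKO, and leaving out DKO replicate 3 gave 0.56.

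Mir300 had log2 signals of 4.70, 5.35, 5.78 and 6.05 in DKO arrays, 5.87, 5.99 and 5.84 in Klf3KO arrays, and 5.76, 7.77, 7.05 and 7.34 in Klf8gt arrays, against 4.80, 4.91, 4.71 and 4.60 in WT arrays. Klf8gt replicates 2, 3 and 4 were the only 3 arrays on which Mir300 exceeded the array's own median, and on 5 arrays, all 4 of WT and DKO replicate 1, it lay under the lower quartile. The Klf8gt mean was 2.23 ± 0.34 above WT. Klf3KO and DKO differed from WT by 1.14 ± 0.36 and 0.71 ± 0.34. DKO arrays lay 1.51 ± 0.34 below Klf8gt arrays. At so low a signal, over an unknown background, a log2 difference does not give the size of a change in RNA.

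Mir377 had log2 signals of 6.45, 6.73, 7.28 and 6.99 in DKO arrays, 6.71, 6.75 and 6.85 in Klf3KO arrays, and 6.35, 7.69, 7.51 and 7.65 in Klf8gt arrays, against 6.28, 5.63, 6.32 and 6.20 in WT arrays. Mir377 was the only member for which every array of every mutant group was above every WT array. The differences from WT were 0.76 ± 0.26 in DKO, 0.66 ± 0.28 in Klf3KO and 1.19 ± 0.26 in Klf8gt.

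**Figure D1:**
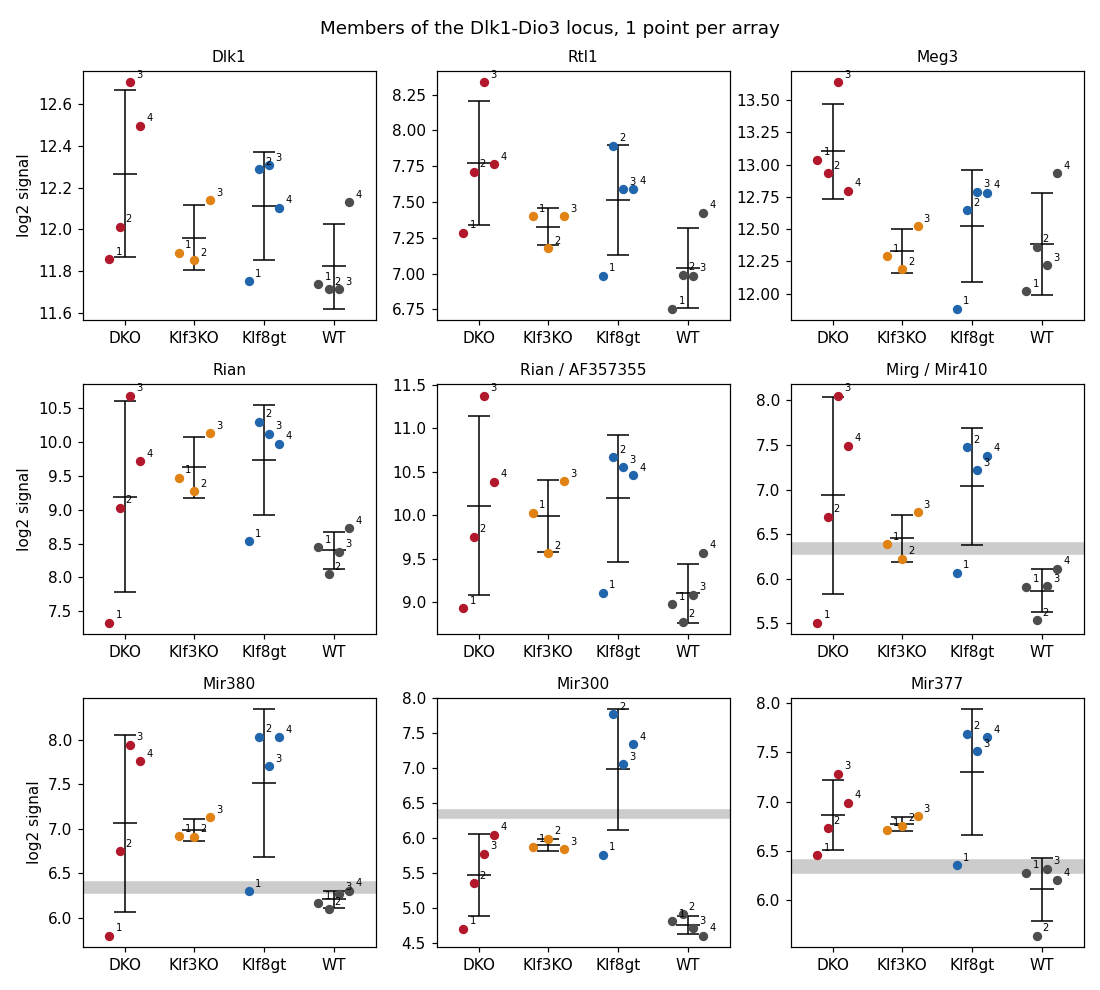
Log2 signal of the 9 member clusters (1 panel each) in DKO, Klf3KO, Klf8gt and WT arrays, with replicate numbers beside the points, the group mean and SD as black bars, and the range of array medians (6.28 to 6.41) as a grey band where it falls within the panel. DKO replicate 1 and Klf8gt replicate 1 are low within their groups for Rian, Rian/AF357355, Mirg/Mir410, Mir380 and Mir377, while Meg3 in DKO replicate 1 is not.

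The members were not tested between these groups, since the groups' signals chose them. Across the members the median log2 difference from WT was 0.76 in DKO, 0.66 in Klf3KO and 1.17 in Klf8gt, beside -0.02, -0.01 and -0.02 over all clusters. In the limma fit over 23410 clusters, an adjusted p under 0.05 was reached by 3.3% of all clusters in DKO against WT, 0.585% in Klf3KO against WT, 0.0% in Klf8gt against WT, 0.047% in DKO against Klf3KO and 3.35% in DKO against Klf8gt.

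The arrays of Klf3KO lay above all WT arrays for 5 members (8.79% of all clusters did so), those of Klf8gt for Mir300 and Mir377 (2.47% of all) and those of DKO for Mir377 (3.64% of all). Meg3 was the member whose DKO arrays lay above all Klf3KO arrays (4.5% of all clusters) and, by a narrow margin, above all Klf8gt arrays (3.21% of all). With the interaction of both genotypes fitted, a contrast added after the data were seen, Mir300 had -2.66 ± 0.49, Rian -1.77 ± 0.79 and Mir377 -1.10 ± 0.38, meaning that DKO lay below the sum of both single differences, whereas Meg3 had 0.63 ± 0.34. These values moved with the fit. The hepatocyte signal described below was part of the choice of members. With it as a covariate these values were -1.85 ± 0.41 for Mir300, -0.09 ± 0.34 for Rian, -0.49 ± 0.32 for Mir377 and 0.96 ± 0.36 for Meg3. Without Klf8gt replicate 1 they were -3.06 ± 0.34 for Mir300, -2.17 ± 0.74 for Rian and -1.42 ± 0.25 for Mir377.

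The comparison of Klf8gt with WT depended on Klf8gt replicate 1. With it, as above, 0 of 23410 clusters passed the adjusted threshold in limma, while 3135 had an unadjusted p under 0.05. Without it 1683 clusters passed (7.19%). The members' Klf8gt differences from WT were then 1.74 ± 0.52 for Rian, 1.72 ± 0.36 for Mir380, 2.63 ± 0.24 for Mir300, 1.51 ± 0.18 for Mir377 and 0.36 ± 0.20 for Meg3. Without DKO replicate 1 the DKO differences from WT were 0.58 ± 0.17 for Dlk1, 0.90 ± 0.20 for Rtl1, 0.74 ± 0.25 for Meg3, 0.97 ± 0.32 for Mir300 and 0.89 ± 0.27 for Mir377. Without both arrays, a choice made after their values were seen, the median difference of the members from WT was 0.97 in DKO and 1.49 in Klf8gt.

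The noncoding RNA and microRNA members varied together over the 15 arrays. Pearson correlations among the 6 clusters of Rian, Mirg and the microRNAs ranged from 0.70 to 0.96 over 15 pairs. Meg3, which lies at the start of the same chain of maternal transcripts, correlated with these 6 at 0.11 to 0.61. Dlk1 correlated with them at 0.49 to 0.90 and Rtl1 at 0.52 to 0.89. These points share arrays, sorted cells and normalization.

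Meg3 and Rian parted most clearly in DKO replicate 1, which had the second highest Meg3 signal of the 15 arrays and the lowest Rian signal. The log2 difference of Meg3 minus Rian, used here only to set arrays against each other, was 5.71, 3.90, 2.95 and 3.08 in DKO arrays, 2.81, 2.91 and 2.39 in Klf3KO arrays, and 3.34, 2.34, 2.66 and 2.80 in Klf8gt arrays, against 3.57, 4.32, 3.84 and 4.21 in WT arrays. All Klf3KO and Klf8gt arrays lay below all WT arrays, while DKO arrays fell on both sides. The order of the mean signals was Klf8gt, Klf3KO, DKO and WT for Rian and Mir300, and Klf8gt, DKO, Klf3KO and WT for Rian/AF357355, Mirg/Mir410, Mir380 and Mir377. For Meg3 it was DKO, Klf8gt, WT and Klf3KO. Neighbours in these orders overlapped except, by a narrow margin, DKO over Klf8gt for Meg3, and Klf3KO over WT for Mirg/Mir410, Mir380 and Mir377. The share of the variance over arrays that lay between genotypes was 75.7% for Mir300 and 60.4% for Mir377, and between 33.1% and 48.8% for the other 7 clusters. Part of the variance lies between groups by chance, and the share over all clusters was not computed. The members were chosen by their signal across these groups.

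The other small RNA genes between Dlk1 and Dio3 had 39 clusters with 1 symbol each, 8 of them from Mir673 to Mir136 before Rian, 4 within Rian and 27 from Mir379 onward. They are not members and were tested in the same fit, but they were listed with earlier results of these data known. They lie in the same locus as the members, some within the same noncoding RNA, and share arrays with them. They are therefore neither 39 independent observations nor an independent check of the members. In DKO against WT, 1 of the 39 passed (2.56%, beside 3.3% of all clusters), and 19 had an unadjusted p under 0.05 (48.7%, beside 17.9% of all). The 1 that passed was Mir370, a microRNA gene within Rian, at 6.61 ± 0.24 in DKO and 6.08 ± 0.20 in WT (SD, n = 4 each), which rose by 0.54 ± 0.14 on the log2 scale (SE; limma adjusted p = 0.0489). Of 24 alternatives 10 kept the call, and their adjusted p ran from 0.00864 to 0.163 over all 24. It was lost without DKO replicates 3 or 4 (0.161 and 0.0797), without Klf3KO replicates 1, 2 or 3 (0.0688, 0.0656 and 0.0581), without Klf8gt replicates 2, 3 or 4 (0.0526, 0.0686 and 0.0636), and without WT replicates 1, 3 or 4 (0.135, 0.163 and 0.0692). It was also lost with sex as a covariate (0.0954), with only the DKO and WT arrays (0.114) and with all clusters of the table tested (0.0833).

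No other small RNA cluster passed in limma in DKO against WT, and 0 of 39 passed in Klf3KO against WT, Klf8gt against WT, DKO against Klf3KO or DKO against Klf8gt, with 3, 26, 8 and 3 clusters at an unadjusted p under 0.05 (over all clusters 7.83%, 13.4%, 12.9% and 18.7% were). For the interaction 0 of 39 passed in limma (0.00427% of all clusters), and 10 had an unadjusted p under 0.05 (14.4% of all clusters did). The differences leaned to 1 side: 38 of 39 lay above 0 in DKO against WT (median 0.41), 32 of 39 in Klf3KO against WT (median 0.23) and 38 of 39 in Klf8gt against WT (median 0.61). These 3 comparisons share the WT arrays, and the 39 clusters are not independent of each other. Without Klf8gt replicate 1, 20 of 39 passed in Klf8gt against WT, 19 higher and 1 lower, beside 7.19% of all clusters. Without DKO replicate 1, 11 of 39 passed in DKO against WT, all higher, beside 5.93% of all. Without both arrays 20 of 39 passed in DKO against WT, all higher (9.65% of all). In Klf8gt against WT 27 of 39 then passed, 26 of them higher (12.5% of all). Both arrays were singled out by low signals of members of this locus. The counts without either array are thus partly fixed by that choice.

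The differences varied along the locus. In the 8 clusters from Mir673 to Mir136, the median difference from WT was 0.34 in DKO, 0.11 in Klf3KO and 0.20 in Klf8gt. In the 4 clusters within Rian it was 0.71 in DKO, 0.58 in Klf3KO and 0.94 in Klf8gt, and in the 27 clusters from Mir379 onward it was 0.37, 0.25 and 0.67. DQ267102, a small nucleolar RNA gene within Rian, differed from WT by 0.99 ± 0.45 in DKO, 0.88 ± 0.49 in Klf3KO and 1.22 ± 0.45 in Klf8gt. Mir341, also within Rian, differed from WT by 0.70 ± 0.31 in DKO, 0.25 ± 0.34 in Klf3KO and 0.46 ± 0.31 in Klf8gt. Mir679, within the microRNA cluster, differed by 0.76 ± 0.27 in DKO against WT.

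Mir666, singled out after its values were seen, was the 1 cluster below 0 in DKO and in Klf8gt against WT. In Klf3KO against WT 7 of the 39 lay below 0, with Mir673 the lowest at -0.21. The Mir666 mean was 7.83 in DKO, 7.69 in Klf3KO and 7.59 in Klf8gt, against 7.90 in WT. It was the 1 cluster that passed as lower in Klf8gt against WT without Klf8gt replicate 1, by -0.40 ± 0.11 (adjusted p = 0.0466, and 0.307 with all arrays).

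**Figure D2:**
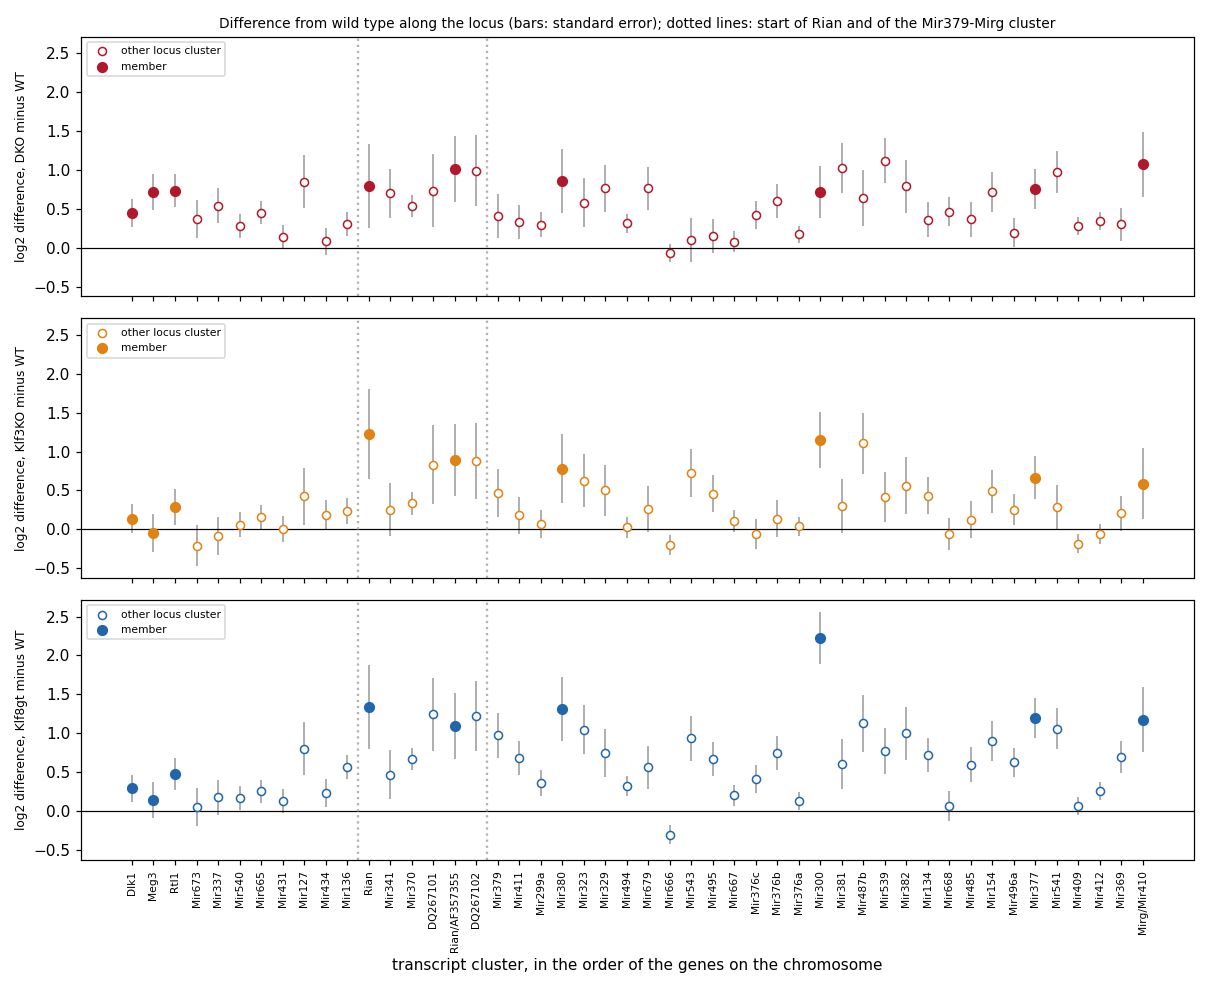
Log2 difference from WT (points) with its standard error (bars) for the 9 member clusters (filled) and the 39 other small RNA clusters (open) in the order of the genes on the chromosome, in DKO (top), Klf3KO (middle) and Klf8gt (bottom). Most points lie above 0 in every panel, Mir300 in Klf8gt stands highest at 2.23, and Mir666 lies below 0 throughout.

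The protein-coding and other genes at the flanks did not lean as the small RNAs did. Of 12 such genes with a cluster of their own, 0 passed in limma in DKO against WT, and the median difference was -0.03. An unadjusted p under 0.05 was reached by 2 (16.7%, beside 17.9% of all clusters). The 4 of highest signal, Hsp90aa1 (a chaperone), Yy1 (a zinc finger factor), Ppp2r5c (a phosphatase subunit) and Wars (a tRNA synthetase), differed from WT by 0.01 ± 0.07, -0.19 ± 0.08, 0.01 ± 0.10 and -0.08 ± 0.11 in DKO. Dio3, the deiodinase that inactivates thyroid hormone and gives the region its name, ranged from 4.45 to 5.23 over the 15 arrays, below every array median. Begain, which lies next to Dlk1, had a mean of 5.90, below the array medians. It was 0.67 ± 0.21 higher in DKO than in Klf8gt on the log2 scale (adjusted p = 0.0877), and passed with the replicate numbers as a block (adjusted p = 0.0397). Without DKO replicate 4 it passed in DKO against WT (0.71, limma adjusted p = 0.0114), Klf3KO (0.88, 0.0129) and Klf8gt (0.92, 0.00215). In that fit 1128, 484 and 1777 of all clusters passed in these 3 comparisons.

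Hepatocyte genes gave a strong signal on every array. The hepatocyte signal, the mean log2 signal of Alb, Afp and Apob (albumin, alpha-fetoprotein and apolipoprotein B), was 12.44, 13.21, 13.40 and 13.38 in DKO arrays, 13.17, 13.19 and 13.33 in Klf3KO arrays, and 13.13, 13.55 and 13.52 in Klf8gt replicates 1, 2 and 4, with replicate 3 just below 13.52, against 12.93, 12.85, 13.05 and 13.16 in WT arrays. DKO replicate 1 was the lowest array and Klf8gt replicate 1 the lowest of its group, and the 3 other Klf8gt arrays were the highest of all. Alb and Afp lay at 13.56 to 14.33, close to the top of the scale, where the highest values of an array were 14.81 to 14.89, so differences in them can be compressed.

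The hepatocyte signal differed from WT by 0.11 in DKO (exact two-sided permutation p = 0.714, adjusted 0.893), 0.23 in Klf3KO (p = 0.0571, adjusted 0.143) and 0.43 in Klf8gt (p = 0.0571, adjusted 0.143), adjusted over 5 comparisons. By the same exact test DKO lay 0.12 below Klf3KO (p = 0.971) and 0.32 below Klf8gt (p = 0.2, adjusted 0.333). Deviations of DKO and Klf8gt arrays of the same replicate number correlated at 0.534 for replicate 1, and at 0.114, 0.158 and 0.180 for replicates 2, 3 and 4. The labels name no pairs. Within the 4 pairs so formed the DKO array was lower by 0.69, 0.34, 0.10 and 0.15. An exact sign-flip permutation test of these pairs gave p = 0.125, the smallest it allows (adjusted 0.208). The smallest p the unpaired exact test allows is 0.0286 for 4 against 4 arrays and 0.0571 for 3 against 4, so no comparison with Klf3KO could pass. After adjustment over 5 comparisons, a single comparison at 0.0286 could not pass either. Over 18 hepatocyte markers, the mean ranged from 10.53 to 11.75 in DKO, 11.52 to 11.81 in Klf3KO and 11.52 to 12.24 in Klf8gt, against 11.13 to 11.57 in WT. Of the 18, 2 passed in limma as lower in DKO than in Klf8gt (3.35% of all clusters passed), and 9 had an unadjusted p under 0.05 (18.7% of all did). The 2 that passed were Apoh, by -1.35 ± 0.29 (adjusted p = 0.0164), and Ahsg, by -1.10 ± 0.26 (adjusted p = 0.0328), both secreted plasma proteins. Apoh missed the threshold without Klf8gt replicate 2 or 4 (0.0669 and 0.0607), Ahsg without Klf8gt replicate 2, 3 or 4 (0.114, 0.0837 and 0.107) or with all clusters tested (0.0644), and both with only the arrays of both groups (0.142 and 0.193). In Klf8gt against WT 0 of 18 passed in limma, and 15 had an unadjusted p under 0.05 (13.4% of all clusters did). More hepatocytes in the sorted sample and more of a transcript per cell cannot be told apart in such bulk values.

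The members followed the hepatocyte signal to different degrees over the 15 arrays. Rian had a Pearson correlation of 0.92 with it, Mir380 0.89, Mirg/Mir410 0.86, Rian/AF357355 0.82, Mir300 0.79 and Mir377 0.78. The coding genes Dlk1 and Rtl1 had 0.66 and 0.61, and Meg3 had 0.20. In deviations from the genotype means Dlk1 reached 0.81, Rtl1 0.79, Rian 0.93 and Meg3 0.44. Without DKO replicate 1 and Klf8gt replicate 2, the arrays farthest from the median of the hepatocyte signal, Dlk1 had 0.77, Rtl1 0.75, Meg3 0.60 and Rian 0.89 over 13 arrays. The points share arrays and normalization, and the relation was part of the choice of members.

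With the hepatocyte signal as a covariate, the Klf8gt difference from WT was 0.02 ± 0.24 for Rian, 0.14 ± 0.19 for Mirg/Mir410 and 0.34 ± 0.23 for Mir380, and it was 0.72 ± 0.22 for Mir377 and 1.59 ± 0.29 for Mir300. In DKO against WT the differences in this fit were 0.65 ± 0.21 for Meg3, 0.63 ± 0.14 for Rtl1, 0.35 ± 0.12 for Dlk1 and 0.81 ± 0.16 for Mirg/Mir410. In DKO against Klf8gt, Mir300 lay at -1.04 ± 0.27 and Meg3 at 0.77 ± 0.23. The covariate was part of the choice of members, and it lay 0.43 higher in Klf8gt than in WT. Smaller differences in this fit were thus partly fixed by that choice. Which part of a difference belongs to hepatocytes was not tested.

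**Figure D3:**
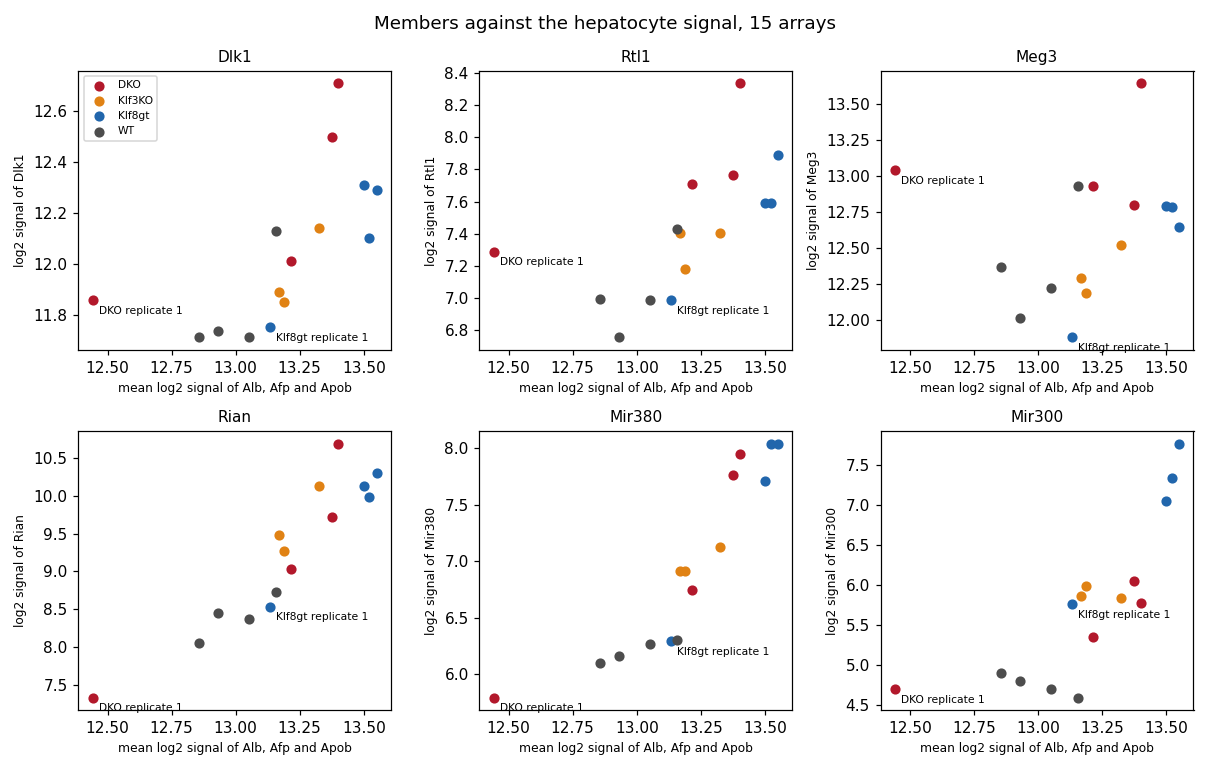
Log2 signal of 6 members against the hepatocyte signal (mean log2 signal of Alb, Afp and Apob), 1 point per array, coloured by group, with DKO replicate 1 and Klf8gt replicate 1 named. Rian and Mir380 run along 1 band over all groups, Meg3 in DKO replicate 1 lies far above the low end of its panel, and Mir300 is highest in 3 Klf8gt arrays.

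The relation also varied along the locus among the 39 clusters that were not members. The median correlation with the hepatocyte signal was 0.49 in the 8 clusters from Mir673 to Mir136, 0.74 in the 4 within Rian and 0.68 in the 27 from Mir379 onward. The extremes, named after their values were seen, were Mir323 at 0.93 and Mir666 at -0.85.

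**Figure D4:**
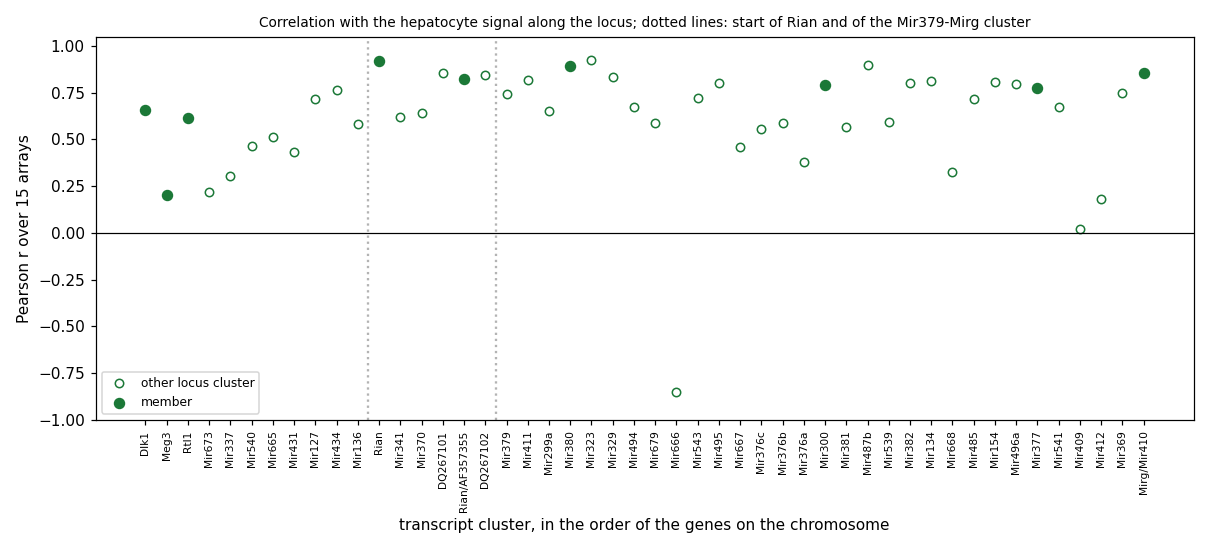
Pearson correlation with the hepatocyte signal over 15 arrays for the 9 member clusters (filled) and 39 other small RNA clusters (open), in the order of the genes on the chromosome. Values climb from Meg3 at 0.20 to Rian at 0.92, stay high in most clusters after it, and Mir666 lies alone at -0.85.

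Markers of other cells were set beside the members as well. The mean of 10 erythroid markers ranged from 12.14 to 12.62 in DKO, 12.36 to 12.55 in Klf3KO and 12.38 to 12.71 in Klf8gt, against 12.51 to 12.70 in WT. Over the 15 arrays it correlated at -0.95 with Dlk1, -0.91 with Rtl1, -0.80 with Rian, -0.73 with Meg3 and -0.45 with Mir300. It was -0.90 for both Rian/AF357355 and Mirg/Mir410, -0.80 for Mir380 and -0.69 for Mir377. For Dlk1, Rtl1, Meg3, Rian/AF357355 and Mirg/Mir410 these were larger in size than the correlations with the hepatocyte signal. In deviations from the genotype means the erythroid mean had -0.95 with Dlk1, -0.97 with Rian, -0.92 with Mir380, -0.76 with Mir300 and -0.79 with Mir377. The hepatocyte signal had 0.81, 0.93, 0.89, 0.72 and 0.72 with the same clusters. In such deviations the erythroid correlation was the larger in size for every member cluster. No test of these differences was made. Of the 10 erythroid markers 7 had an unadjusted p under 0.05 in DKO against WT (17.9% of all clusters did), and 1 passed in limma (3.3% of all). It was Klf1, an erythroid relative of the altered factors, with a log2 difference of -0.41 (adjusted p = 0.0487). That call was lost in 15 of 24 alternatives, among them leaving out any array other than DKO replicate 1, Klf8gt replicate 1 or WT replicate 4 (0.0581 to 0.156).

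The mean of 14 macrophage markers was 7.40 to 8.99 in DKO, 8.61 to 9.10 in Klf3KO and 8.73 to 9.28 in Klf8gt, against 9.19 to 9.54 in WT. In DKO against WT 6 of the 14 fell, where 3.3% of all clusters passed. The log2 differences were -2.54 for Cd5l, a secreted protein of tissue macrophages, -1.60 for Timd4, a receptor for dying cells, -1.54 for Marco, a scavenger receptor, -1.38 for Adgre1, which encodes F4/80, -1.23 for the complement gene C1qa and -0.999 for Spic, a transcription factor of red pulp macrophages. Cd5l, Marco and Spic passed in all 24 alternatives. Timd4 missed the threshold in 2 (0.0601 without WT replicate 3) and Adgre1 in 6, among them without DKO replicate 2 or 3 (0.0518 and 0.0652) or WT replicate 1, 2 or 3 (0.0586, 0.0668 and 0.0878). C1qa missed it in 14, among them without DKO replicate 1, 2 or 3, Klf3KO replicate 1 or 2, Klf8gt replicate 2, 3 or 4, or any WT array (limma adjusted p between 0.0545 and 0.126). Col1a1 and Col1a2, which encode the chains of type I collagen, rose by 0.86 and 0.58 in DKO against WT and were the 2 of 11 stromal markers that passed (4 had an unadjusted p under 0.05, beside 17.9% of all clusters). Of 7 progenitor markers, Cd48 had a log2 difference of -0.63 (adjusted p = 0.0438), a call lost in 13 of 23 alternatives, among them without DKO replicate 1 or 3, Klf3KO replicate 2, Klf8gt replicate 2, 3 or 4, or WT replicate 1, 2 or 3 (0.056 to 0.149). Col1a2 missed the threshold without WT replicate 1, 2 or 3 (limma adjusted p = 0.0615, 0.0541 and 0.0856) and with sex as a covariate (0.0764), and both missed it with only the DKO and WT arrays in the fit (0.126 for Col1a2 and 0.0706 for Col1a1). Meg3 correlated at -0.62 with the macrophage mean and at 0.63 with the stromal mean, and in deviations from the genotype means at -0.25 and 0.37. In such deviations Meg3 correlated at 0.80 with the endothelial and 0.68 with the progenitor mean (0.53 and 0.24 over the arrays as they are). For Dlk1, Rtl1, Rian and Mir377 the progenitor mean had 0.85, 0.81, 0.83 and 0.89 in deviations. The endothelial mean had 0.72, 0.85, 0.73 and 0.77, beside 0.81, 0.79, 0.93 and 0.72 for the hepatocyte signal. The part of these cells in the Meg3 difference was not tested.

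Genes around the pathway of DLK1 and around imprinting were counted in the same fit. Of 17 Notch pathway genes, to which DLK1 is related by its repeats, 0 passed in limma in any of the 5 comparisons. In each, 2 to 4 had an unadjusted p under 0.05 (7.83% to 18.7% of all clusters did). In DKO against WT that was 3 of 17 (17.6%, beside 17.9% of all clusters). The Notch pathway genes of highest array signal were Adam10, Adam17, Notch2 and Rbpj, and Notch2, a receptor, differed by 0.53 ± 0.21 in DKO against WT (adjusted p = 0.192). Of 4 deiodinase and thyroid hormone receptor genes 0 passed, with 0 or 1 at an unadjusted p under 0.05 in each comparison (7.83% to 18.7% of all clusters).

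Of 17 genes listed for imprint control, Tet1, an enzyme that oxidises methylated cytosine, rose by 1.02 ± 0.14 in DKO against WT (adjusted p = 0.000569). It rose by 0.70 ± 0.14 in DKO against Klf8gt (adjusted p = 0.0125, and 0.103 with only the arrays of both groups). The other 16 did not pass in DKO against WT, where 3.3% of all clusters passed. Aff3, which binds imprint control regions in mouse stem cells, rose by 0.40 ± 0.10 in DKO against Klf8gt (adjusted p = 0.041), a call that 13 of 23 alternatives lost (adjusted p between 0.0254 and 0.211 over the 23). These included leaving out DKO replicate 1 or 3, Klf3KO replicate 1 or 2, Klf8gt replicate 2, 3 or 4, or any WT array (adjusted p from 0.0533 to 0.124). Of 9 microRNA processing genes, Ago2, the slicing Argonaute, fell by 0.38 ± 0.09 in DKO against WT (adjusted p = 0.0259). That call was lost without DKO replicate 2 or 3 (0.0666 and 0.0847) or without WT replicate 2, 3 or 4 (0.0887, 0.076 and 0.0575). It was also lost with sex as a covariate (0.0629) and with only the DKO and WT arrays (0.133). Drosha and Dicer1, which cut microRNA precursors, differed by 0.32 ± 0.09 and 0.06 ± 0.12 in DKO against WT and did not pass.

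Among 11992 gene clusters with a mean signal above the lowest array median, those most like Dlk1 over the 15 arrays were Igdcc4 (Pearson r = 0.975), Lrp4 (0.962), Nisch (0.961), Fasn (0.961), the fatty acid synthase, and Cluh (0.959). Those most like Meg3 were Sptbn1 (0.986), a spectrin of non-erythroid cells, Trio (0.962), Utrn (0.960), the dystrophin homologue utrophin, Thoc2l (0.958) and Egfl7 (0.955), a secreted protein of endothelium. No gene was on both lists of 5.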

How the data were processed

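RNA of 15 samples was measured on 1 array each. Each deposited value is the log2 signal of 1 transcript cluster on 1 array. RMA and Partek are listed in the submitters' processing notes without order or version, and no build of the array is named. Symbols came from the platform annotation, with 21789 clusters naming 1 gene, 1621 several and 12146 none. The log2 values were used as deposited. With limma 3.58.1 (lmFit, eBayes) in R 4.3.3, a model of 4 genotype means was fitted to the 15 arrays over the 23410 clusters with a symbol, and p-values were adjusted by Benjamini and Hochberg at a threshold of 0.05. Every adjusted p is from this fit unless an exact permutation test is named, and the procedure was tested on simulated data. The p-values rest on the spread between samples not stated to be separate embryos, which may be technical, and 3 or 4 arrays a group limit the precision. Folds are given only where both group means exceed the array medians. Figures and descriptive values used Python 3.11.15 with pandas 2.3.3, scipy 1.17.1 and matplotlib 3.10.9.

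Members and gene lists were chosen with earlier results of these data known. Named are the members, every gene past the threshold in the locus, Notch, imprint control, microRNA processing and thyroid hormone lists, otherwise the 2 to 4 of highest mean signal, and the 5 genes most correlated with Dlk1 and with Meg3. Other names, among them the cell type markers, were chosen after their values were seen. Alternatives were leaving out each array, a replicate block, sex or the hepatocyte signal as a covariate, array centring, a filter on low values, all clusters, only both groups, a trended robust prior and, chosen after seeing the data, leaving out both arrays named as low, the interaction and a paired test of the hepatocyte signal. Replicate numbers were taken as pairs from the data, not the labels, between DKO and Klf8gt. Deviations of all 4 same-numbered pairs correlated there at 0.114 to 0.534, with replicate 1 the highest. Those between DKO and Klf3KO correlated at 0.0707 to 0.158, and those with WT at -0.276 to 0.128.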

Additional observations from a re-analysis of the deposited data

Results flagged for a closer look

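In groups of 4 arrays, 30 sets of values were examined for an array far from the other 3, and 5 had one. The cut-off is one that about 1 in 20 independent sets passes by chance. These sets share arrays and their clusters vary together, so the count cannot be compared with that rate. In WT, replicate 4 had a Dlk1 signal of 12.13, while the other 3 WT arrays lay at 11.71 to 11.74. The other 4 were all Klf8gt replicate 1, with 11.88 for Meg3, 9.11 for Rian/AF357355, 6.35 for Mir377 and 13.13 for the hepatocyte signal, each below the other 3 Klf8gt arrays.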

How the results depend on the processing

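Counts of clusters past the threshold moved with the arrays and covariates used, and the cause was not tested. Over all clusters, DKO against WT gave 772, with 382 to 1389 when 1 array was left out, 295 with only the arrays of both groups, 1309 with the hepatocyte signal as covariate and 2260 without both arrays that stand apart. Klf3KO against WT gave 137 (61 to 180 with 1 array left out), and 481, 232 and 296 under the same 3 settings. Klf8gt against WT gave 0 (0 to 1683), and 2917 without both arrays. DKO against Klf3KO gave 11 (1 to 484), 0 with both groups only, 6 with all clusters tested, 478 with the covariate and 162 without both arrays. DKO against Klf8gt gave 785 (393 to 1777), and 188, 1453 and 1245 under the same 3 settings as for DKO against WT.

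Of the 51 other clusters of the locus, DKO against WT gave 1 (0 to 11 with 1 array left out), 3 with the replicate block, 0 with both groups only or with all clusters tested, 2 with centred arrays, with the filter on low values (13196 clusters) or with the trended robust prior, 6 with the covariate and 20 without both arrays. Klf3KO against WT gave 0 (0 in every such fit), 5 with both groups only and 1 without both arrays. Klf8gt against WT gave 0 (0 to 22) and 29 without both arrays. DKO against Klf3KO gave 0 (0 to 2) and 1 with the covariate. DKO against Klf8gt gave 0 (0 to 5), 1 with the replicate block, 2 with the covariate, 1 with sex as covariate and 4 without both arrays. Both arrays were singled out by low signals of members of this locus, so counts without them are partly fixed by that choice.

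The difference in hepatocyte signal kept its direction in every alternative, except that DKO against Klf3KO ranged from -0.22 to 0.10. No alternative passed the threshold, but with 1 array left out the exact test could not pass. Its smallest p is then at best 0.0571. In these fits the difference ranged from 0.01 to 0.33 in DKO against WT, 0.18 to 0.28 in Klf3KO against WT, 0.38 to 0.53 in Klf8gt against WT and -0.42 to -0.10 in DKO against Klf8gt. The median correlation of the members with it was 0.79, 0.81 in deviations from genotype means and 0.88 without 2 arrays. The replicate block moved none of the 5 counts over all clusters by over 1.5 times. For the interaction, outside these 5, it gave 13 clusters against 1, with 0 to 718 when 1 array was left out (718 without Klf8gt replicate 1, 386 without DKO replicate 4), 7 with the covariate and 746 without both arrays. Mir300 in DKO against Klf8gt ranged from -1.92 to -1.25 with 1 array left out. The values carry no detection call, so low signals such as Mir300 and Dio3 are limited by an unknown background.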
